A study of Mus musculus with 8 samples.

Results

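The genes described here lie within an 8 Mb block of mouse chromosome 9, between 84 and 92 Mb of build GRCm38. The block surrounds Me1, the gene of the cytosolic malic enzyme, and Zfp949, a gene of the zinc finger protein family. Of 54385 genes in the deposited table, 158 lie wholly in the block, 94 of these had at least 1 count in any library, and 29 are members because they had at least 10 counts in 4 or more libraries. Me1 and its more distant neighbour Zic1 were left out of the members by rule. Of the 29 members, 19 are protein-coding, 10 are non-coding or pseudogene annotations, and all 29 entered the tests. The window was chosen with earlier results of these data known, Zfp949 and Cyb5r4 being its named examples.

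The series measured polyadenylated RNA in interscapular brown adipose tissue of C57BL/6N mice aged 20 weeks and fed chow. The knockout group, called cKO, comprises 4 libraries from mice with floxed Adcy3 alleles and a Cre recombinase transgene driven by the adiponectin promoter (genotype Adcy3-FL/FL/Adipoq-wt/cre). Cre of this kind acts in adipocytes, so the other cells of the tissue keep Adcy3. The control group, called WT, comprises 4 libraries from mice with the same floxed alleles and no Cre (Adcy3-FL/FL/Adipoq-wt/wt). The title of WT replicate 4 names it a control, whereas its genotype entry carries the Cre. Both groups therefore share the floxed alleles, and the labels leave unsaid whether libraries are separate animals. The p-values measure spread between libraries, which may be technical. The series' design text calls the tissue inguinal, against interscapular in the sample labels.

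Adcy3, the adenylyl cyclase gene targeted by the knockout, was at 18.0, 20.9, 25.3 and 21.5 CPM, which are counts scaled to a common library size, in cKO replicates 1 to 4, against 112, 118, 61.7 and 118 CPM in WT replicates 1 to 4. The groups did not overlap and WT replicate 4 lay with the other WT libraries (log2 fold change cKO over WT -2.26 ± 0.21 SE, edgeR adjusted p = 0.000925). Libraries held between 10713043 and 16243318 estimated counts in cKO and between 12977094 and 32437214 in WT. All 8 markers of brown adipocytes were measured, at a summed 9927 to 13931 CPM in cKO and 11110 to 12966 CPM in WT. The 14 skeletal muscle markers varied widely within both groups, at 195 to 11254 CPM in cKO and 74.1 to 8844 CPM in WT. Macrophage markers summed to 55.4 to 127 CPM in cKO and 74.4 to 123 CPM in WT, and endothelial markers to 474 to 581 CPM in cKO and 499 to 767 CPM in WT. Of 4 neutrophil markers, 1 passed the count filter. The part of these cell types in the values of the block was not tested, and in bulk tissue fewer cells of a type and less RNA per cell cannot be told apart.

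Genes that lie close together on a chromosome are inherited together, so a mouse line bred from 2 sources can carry a stretch of linked DNA in which several neighbours differ from another line. Such differences can act on each gene through its own sequence, and neighbours need not change in the same direction. Many genes also have processed pseudogenes, intron-free copies made when a messenger RNA was copied back into DNA and inserted elsewhere in the genome. Reads from such near-identical copies can be assigned to either place, and estimated counts divide them by a model. The question asked of the block was whether its genes shift together between cKO and WT, compared with the 8 Mb on each side.

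The genes of the block did not shift in a common direction. Of the 29 members, 14 had a positive and 15 a negative log2 fold change, with a median of -0.02, against 51.8% positive and a median of 0.01 over all 14553 genes tested. By edgeR 0 members were called at an adjusted p of 0.05, where 0.0687% of all genes tested were called. At an unadjusted edgeR p under 0.05 there were 3 members (10.3%), Zfp949 and Cep162 higher and Morf4l1 lower in cKO, where 5.6% of all genes tested reached it (2.15% higher and 3.45% lower in cKO). DESeq2 called 1 member, Zfp949, where it called 0.316% of all genes tested, and limma-voom called 0, where it called 0.0687%. In 3 members (10.3%) the 4 cKO libraries did not overlap the 4 WT libraries, Zfp949 and Gm28229 higher and Morf4l1 lower (the last only without its copies elsewhere, described below), against 3.5% of all genes tested (1.23% higher and 2.27% lower). These shares rest on few genes, and no test was made over the members. Mixed signs do not answer whether neighbours differ each in its own direction. Without cKO replicate 2 the count at an unadjusted p under 0.05 was 1, without WT replicate 3 it was 6 and the count without overlap was 5, and both counts were 1 with WT replicate 4 moved to cKO.

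By edgeR the flanking windows held no called gene either. In the 8 Mb before the block (76 to 84 Mb) 32 genes met the same count minimum, 22 positive and 10 negative with a median log2 fold change of 0.09, and 3 (9.38%) had an unadjusted edgeR p under 0.05. In the 8 Mb after it (92 to 100 Mb) 40 genes met the minimum and 38 were tested, 24 positive and 14 negative with a median of 0.04, and 2 (5.26%) had an unadjusted p under 0.05. None of the flanking genes was called by edgeR, DESeq2 or limma-voom. Groups did not overlap for 2 genes (6.25%) before the block and 1 gene (2.63%) after it. The median size of the log2 fold change, regardless of sign, was 0.22 in the block, 0.19 before it, 0.15 after it and 0.14 over all genes tested. In the block it ran from -0.97 (Pgm3) to 0.83 (Zfp949).

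**Figure D1:**
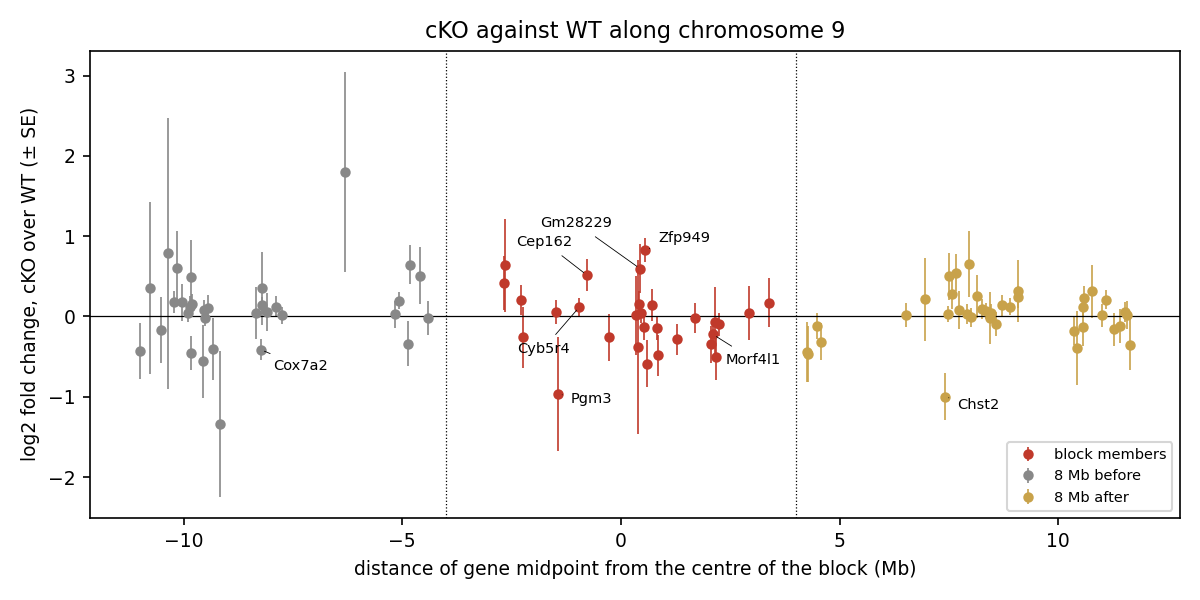
Fitted log2 fold change of cKO over WT (± SE, n = 4 libraries per group) for each tested gene against its distance in Mb from the centre of the block, with block members in red and the 8 Mb windows before and after in grey and yellow. Positive and negative values are mixed within the block, and its median of -0.02 lies beside medians of 0.09 and 0.04 in the windows before and after.

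Within the block the medians stepped down along the chromosome, from few genes each. The median log2 fold change was 0.31 over 4 genes at 84 to 86 Mb, 0.05 over 5 genes at 86 to 88 Mb, -0.02 over 13 genes at 88 to 90 Mb and -0.10 over 7 genes at 90 to 92 Mb. Bins of the same size outside the block had medians from -0.38 (4 genes at 92 to 94 Mb) to 0.18 (7 genes at 76 to 78 Mb), so the medians of 3 of the 4 bins in the block lie within the range outside it. No test was made of this order.

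Single libraries likewise did not sort by group. Each member was set against its own mean log2 CPM over the 8 libraries, and the members above that mean were counted. In cKO replicates 1 to 4 there were 12, 16, 13 and 16 of 29 members above their mean, and in WT replicates 1 to 4 there were 21, 14, 15 and 10. WT libraries thus held both the highest and the lowest count, and WT replicate 4 the lowest. The same share over all genes tested lay between 50.7% and 51.5% in cKO libraries and between 49.8% and 53.7% in WT libraries, against 41.4% to 55.2% in cKO and 34.5% to 72.4% in WT for the block. Before the block it lay between 53.1% and 65.6% in cKO and between 40.6% and 53.1% in WT. After the block it lay between 42.1% and 60.5% in cKO and between 42.1% and 52.6% in WT. The block and both windows hold far fewer genes than the whole table.

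**Figure D2:**
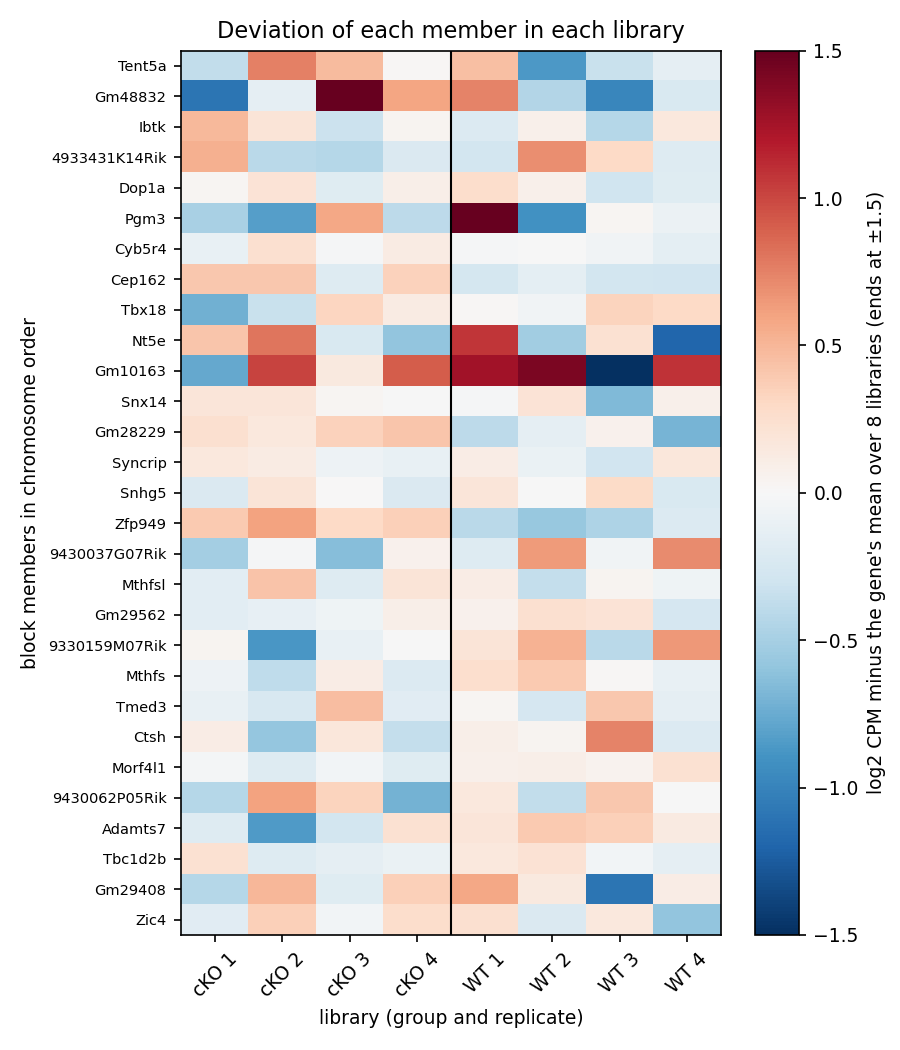
Deviation of each of the 29 members, in chromosome order from top to bottom, from its own mean log2 CPM over the 8 libraries (red higher, blue lower, colour scale ending at ±1.5), with cKO libraries left of the black line and WT libraries right of it. The Zfp949 row is higher in all 4 cKO libraries, while most rows mix colours within a group.

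Zfp949 (chr9:88548020-88571061, plus strand, ENSMUSG00000032425) had the largest positive difference of the block. Its level was 9.96, 11.6, 9.33 and 9.72 CPM in cKO replicates 1 to 4, against 5.72, 5.07, 5.46 and 6.57 CPM in WT replicates 1 to 4. Every cKO library lay above every WT library, WT replicate 4 included. Group means were 10.1 ± 0.991 CPM in cKO and 5.71 ± 0.633 CPM in WT (SD, n = 4 each), a fitted 1.78-fold difference (log2 fold change 0.83 ± 0.15 SE, 95% interval 0.50 to 1.16). Its edgeR unadjusted p was 0.00014 and its adjusted p 0.169, its DESeq2 adjusted p was 0.0021 and its limma-voom adjusted p 0.158. The gene gave its name to the block with this difference in view, so the value describes it and is no independent support. Only 1.30% of its 31-base sequences occur in transcripts of another gene, so division of reads between copies touches little of it.

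Of the 5 members described next around Zfp949, Gm28229 was also higher in every cKO library, and the groups of the other 4 overlapped. Snhg5, a host gene of small nucleolar RNAs on the side of lower coordinates, had a log2 fold change of -0.12 ± 0.17 (SE), at 7.05 to 9.39 CPM in cKO and 6.95 to 9.98 CPM in WT. The long non-coding RNA 9430037G07Rik on the other side had -0.59 ± 0.29 (SE, edgeR unadjusted p = 0.0662), at 1.90 to 3.19 CPM in cKO and 2.64 to 5.06 CPM in WT. Syncrip, which encodes the RNA-binding protein hnRNP Q, had 81.9, 79.4, 69.4 and 67.4 CPM in cKO and 79.1, 68.4, 60.1 and 82.4 CPM in WT (log2 fold change 0.04, 95% interval -0.23 to 0.31). Mthfsl, annotated as similar to the folate enzyme gene Mthfs, had 0.14 ± 0.20 (SE). 

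Gm28229 (chr9:88441500-88443652, minus strand), an RNA annotated as sense intronic, lies between Snx14 and Syncrip. It stood at 1.69, 1.60, 1.84 and 1.93 CPM in cKO and 1.06, 1.29, 1.49 and 0.83 CPM in WT, which is 16 to 29 counts per cKO library and 11 to 34 per WT library. Its log2 fold change was 0.59 ± 0.30 (SE, edgeR unadjusted p = 0.0744, adjusted p = 0.886). Cep162, which encodes a centrosomal protein of the base of the cilium, had 5.83, 5.79, 3.81 and 5.57 CPM in cKO and 3.61, 3.93, 3.58 and 3.55 CPM in WT. Here cKO replicate 3 fell inside the WT range while the other 3 cKO libraries lay above it (log2 fold change 0.52 ± 0.20 SE, edgeR unadjusted p = 0.0247, adjusted p = 0.882).

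**Figure D3:**
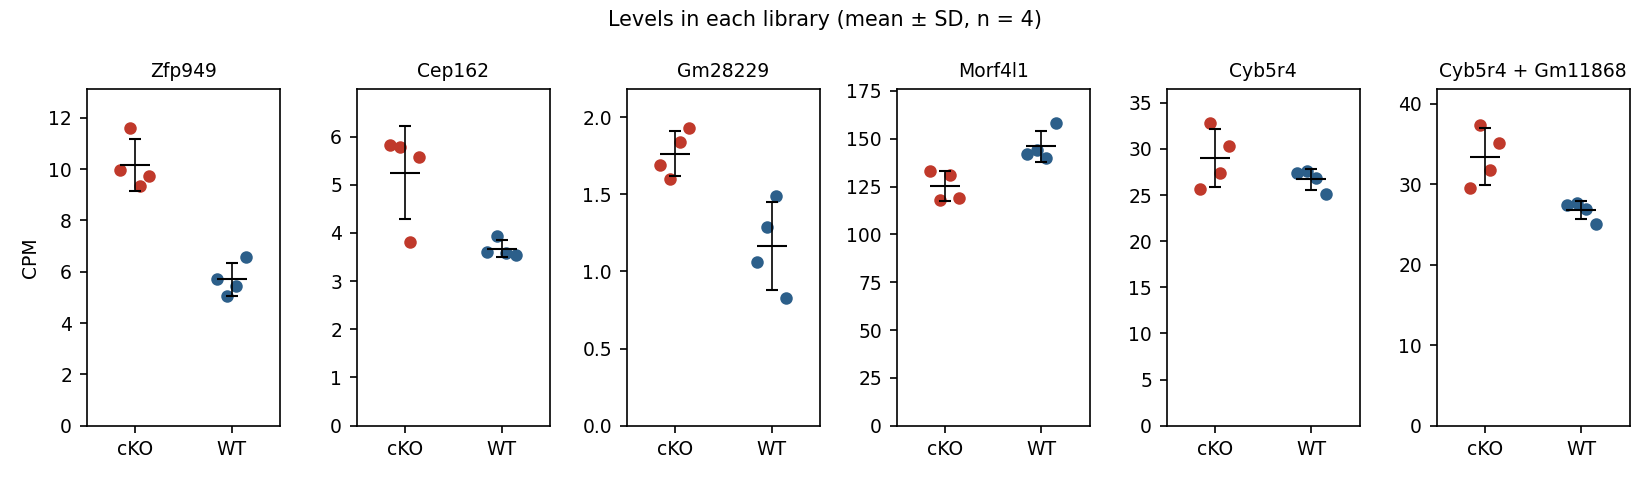
CPM of 5 members and of Cyb5r4 summed with its copy Gm11868 in each library (points), with cKO left and WT right in each panel and group means ± SD (n = 4 each) as black bars. Zfp949 lies at 9.33 to 11.6 CPM in cKO and 5.07 to 6.57 CPM in WT, and Cyb5r4 overlaps between groups whereas its sum with Gm11868 does not. Gm11868 holds 236 counts in cKO and 1 in WT, so the sum raises almost only the cKO values.

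Cyb5r4 (chr9:87022014-87077774, plus strand) encodes an oxidoreductase of the endoplasmic reticulum that joins a cytochrome b5 domain to a reductase domain. It stood at 25.7, 32.8, 27.4 and 30.3 CPM in cKO and 27.4, 27.6, 26.8 and 25.1 CPM in WT. The groups overlapped and the difference was within their spread (29.0 ± 3.12 CPM in cKO and 26.7 ± 1.16 CPM in WT, SD, n = 4 each). Its log2 fold change was 0.12 ± 0.11 (SE, 95% interval -0.12 to 0.36), with an edgeR adjusted p of 0.920. Cytochrome b5 and its reductases pass electrons to fatty acid desaturases, among them the stearoyl-CoA desaturases. Of 13 genes of that system 11 were tested, 8 positive and 3 negative with a median log2 fold change of 0.09, and 0 had an unadjusted edgeR p under 0.05 or were called by edgeR, DESeq2 or limma-voom.

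Morf4l1 (chr9:90091665-90114774, minus strand) encodes a chromodomain protein of histone acetyltransferase and deacetylase complexes, and was the member lower in every cKO library. It had 133, 118, 131 and 119 CPM in cKO and 142, 144, 140 and 158 CPM in WT, without overlap. The difference was 1.17-fold (log2 fold change -0.22 ± 0.10 SE, 95% interval -0.44 to -0.01) and did not pass the test over all genes (edgeR unadjusted p = 0.0448, adjusted p = 0.884). With the counts of its copies elsewhere added, its groups overlapped and the log2 fold change was -0.09 (edgeR unadjusted p = 0.369). Its neighbour Ctsh, the gene of the lysosomal protease cathepsin H, had 8.47, 5.19, 8.82 and 6.09 CPM in cKO and 8.37, 8.07, 13.2 and 6.79 CPM in WT (log2 fold change -0.35 ± 0.23 SE). The groups of Ctsh overlapped.

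Enzymes of small-molecule pathways in the block overlapped between groups. Pgm3, which converts N-acetylglucosamine 6-phosphate to the 1-phosphate in the hexosamine pathway, had 2.44, 1.90, 5.20 and 2.60 CPM in cKO and 15, 1.79, 3.53 and 3.25 CPM in WT. Its log2 fold change of -0.97 ± 0.71 (SE, edgeR unadjusted p = 0.213) carries the one high value of WT replicate 1, and the other 3 WT libraries, at 1.79 to 3.53 CPM, overlap the cKO range. Over the 6 tested of 7 hexosamine pathway genes, 5 were positive and 1 negative (median log2 fold change 0.13), 2 had an unadjusted edgeR p under 0.05 and 0 were called by edgeR, DESeq2 or limma-voom. Those 2 were Gfpt2, an isoform of the first enzyme of the pathway (0.73, unadjusted p = 0.0471), and the acetyltransferase gene Gnpnat1 (0.36, unadjusted p = 0.0102). Over all genes tested 5.6% had an unadjusted edgeR p under 0.05 (2.15% higher in cKO). The list holds few genes and was chosen with earlier results known, so its count is a description only. Nt5e, the ectoenzyme CD73 that makes adenosine from AMP outside the cell, ranged from 1.56 to 4.29 CPM in cKO and from 0.981 to 5.19 CPM in WT (log2 fold change 0.02). Of 13 genes of extracellular adenosine handling 9 were tested, 3 positive and 6 negative with a median of -0.18, and 0 had an unadjusted edgeR p under 0.05 or were called by any of the 3 tools. Mthfs, a folate cycle enzyme gene, had 3.99 to 5.65 CPM in cKO and 4.83 to 6.93 CPM in WT (-0.29 ± 0.19 SE).

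Members that act in membrane traffic and RNA metabolism also overlapped between groups. Snx14, a sorting nexin of endoplasmic reticulum and lipid droplet contacts, had 40.8, 40.6, 36.7 and 35.8 CPM in cKO and 35.6, 41.6, 22.7 and 38.0 CPM in WT (log2 fold change 0.16 ± 0.16 SE). Dop1a, a gene of endosome to Golgi traffic, had 17.4 to 22.7 CPM in cKO and 16 to 23.6 CPM in WT (0.05 ± 0.14 SE). Tmed3, a cargo receptor gene of the early secretory pathway, had -0.02 ± 0.19 (SE), and Tbc1d2b, a regulator of Rab GTPases, -0.10 ± 0.14 (SE). Tent5a, a non-canonical poly(A) polymerase gene, had 26.4, 58.0, 47.6 and 34.5 CPM in cKO and 47.0, 18.8, 27.1 and 31.3 CPM in WT (0.42 ± 0.33 SE). Ibtk, named as an inhibitor of Bruton's tyrosine kinase, had 13.3 to 23.4 CPM in cKO and 12.5 to 18.8 CPM in WT (0.21 ± 0.18 SE).

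Developmental and matrix genes of the block had few counts, and their groups overlapped. Tbx18, a T-box transcription factor gene, had 1.36 to 2.92 CPM in cKO and 2.21 to 2.93 CPM in WT (log2 fold change -0.26 ± 0.29 SE). Zic4, a zinc finger transcription factor gene, had 1.56 to 2.30 CPM in cKO and 1.13 to 2.11 CPM in WT (0.17 ± 0.30 SE). Adamts7, a secreted metalloproteinase gene, had 1.96, 1.20, 1.84 and 2.67 CPM in cKO and 2.58, 3.00, 2.93 and 2.49 CPM in WT, and cKO replicate 4 lay inside the WT range (-0.51 ± 0.28 SE, edgeR unadjusted p = 0.0949). Zic1, left out of the members by rule, had a log2 fold change of 0.72 ± 0.22 (SE, edgeR unadjusted p = 0.00744, adjusted p = 0.814), and its groups overlapped. Zic4 overlaps Zic1, Adamts7 overlaps Tbc1d2b, Dop1a overlaps Pgm3, Ibtk overlaps 4933431K14Rik and Snx14 overlaps Gm10163. The strand setting of the counting is not given in the sources used here, so reads from overlapping genes cannot be told apart with certainty.

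The remaining 7 members are non-coding RNAs, unconfirmed transcripts or a pseudogene, and their groups overlapped. Their log2 fold changes were 0.64 (Gm48832), -0.26 (4933431K14Rik), -0.38 (Gm10163), -0.14 (Gm29562), -0.49 (9330159M07Rik), -0.08 (9430062P05Rik) and 0.04 (Gm29408). Gm10163, Gm29562 and Gm29408 share at least 50% of their 31-base sequences with other genes. In Gm10163, WT replicate 3 was at 0 counts and the other 7 libraries at 33 to 305. Gm13370, a pseudogene on chromosome 2 that has 99.6% of its 31-base sequences in Gm10163, held 191 counts in WT replicate 3 and 0 in the other 7 libraries. Gm13370 was picked out after its values were seen.

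At the edges of the rule, the outermost members were Tent5a and Zic4, described above. Just outside, Bckdhb, a subunit gene of the branched-chain ketoacid dehydrogenase, straddles the 84 Mb boundary (83925145 to 84124240, plus strand) and is not a member. It had 110, 140, 130 and 110 CPM in cKO and 96.9, 83.7, 98.2 and 87.5 CPM in WT, without overlap (log2 fold change 0.42 ± 0.12 SE, edgeR unadjusted p = 0.00323, adjusted p = 0.724). Plscr1, a phospholipid scramblase gene beyond the upper edge, had 0.60 to 1.1 CPM in cKO and 0.755 to 1.39 CPM in WT (-0.44 ± 0.37 SE). The member 9430062P05Rik had at least 10 counts in exactly 4 libraries, at 0.371 to 1.1 CPM in cKO and 0.50 to 0.944 CPM in WT. Gm17530, Rwdd2a and Gm37375 had it in 3 and are not members, with 0.223 to 0.571, 0.520 to 1.71 and 0 to 2.50 CPM in cKO and 0.302 to 2.46, 0.50 to 2.55 and 0 to 0.929 CPM in WT.

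In the flanks, the genes with the smallest unadjusted edgeR p had log2 fold changes of 0.24 to 1.0 in size, and 0 of them was called. Before the block they were Cox7a2, a cytochrome c oxidase subunit gene (-0.41, edgeR adjusted p = 0.812), the unconfirmed transcript Gm38279, which shares 84.6% of its 31-base sequences with other genes (0.64, edgeR adjusted p = 0.882), and the non-coding C920006O11Rik (-0.45, edgeR adjusted p = 0.884). Cox7a2 had 157, 169, 186 and 151 CPM in cKO and 204, 208, 272 and 197 CPM in WT, without overlap. After the block they were Chst2, a carbohydrate sulfotransferase gene (-1.0, edgeR adjusted p = 0.784), Pcolce2, a procollagen processing enhancer gene (0.55, edgeR adjusted p = 0.882), and Slc25a36, a mitochondrial nucleotide carrier gene (0.24, edgeR adjusted p = 0.890). Chst2 had 0.891 to 1.1 CPM in cKO and 1.66 to 2.36 CPM in WT, without overlap. The other gene of the window before the block without overlap was Phip (0.20).

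A different picture came from copies of block genes elsewhere in the genome. Copies were defined by shared sequence alone. They are genes outside the block with at least 50% of their 31-base sequences in transcripts of a member or of Me1. The word therefore does not say which gene derives from which. Most of the copies matched Gm10163, itself annotated as a processed pseudogene, and several of these are named as Rpl21 pseudogenes. Others matched the long non-coding RNA Gm29562. In all, 46 such copies of 8 genes were found. Of these, 5 passed the count filter of the test, and 41 did not, 27 of them with no count in any library. For 4 of the 5, copies of Me1, Cyb5r4 and Morf4l1, counts were assigned almost wholly in cKO libraries. The log2 fold changes of these 3 parent genes themselves lay between -0.22 and 0.12. Earlier results of these data already showed some of these differences, so they are described here and are no independent support. Of the 5 tested copies edgeR called 3, and 4 did not overlap between groups. These 4 had at least 10 counts in 4 or 5 libraries, all cKO libraries among them. They could pass the filter only through the group where they are high, so their counts are no support. Gm7049 and Gm48795 overlap in position and are not separate observations. Over all genes tested 0.0687% were called and 3.5% did not overlap, which is no like comparison for copies that passed this way. Of 223 processed pseudogenes tested, Gm11868, Gm7049 and Morf4l1-ps1 included, 5 were called and 11 (4.93%) did not overlap. For protein-coding chromosome 9 genes outside the block, 8 copies on other chromosomes were tested, and 0 were called or without overlap.

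For each of the 3 parent genes, its single-exon processed pseudogene is set beside it as a 90-base coding stretch, to show how close the sequences are. Whether counts of the copies come from reads of the parents was not tested. The stretch was chosen in each pair as the first, within 1 exon of the parent and without gaps, that held the most differing bases, which are in capitals. They are written 5′ to 3′ on the strand of the gene, from GENCODE release M21 transcripts on GRCm38. Gm7049 (chr13:62813567-62813656, plus strand) is set against exon 5 of Me1 (chr9:86650886-86650975, minus strand), Gm11868 (chr4:18845463-18845552, minus strand) against exon 3 of Cyb5r4 (chr9:87029504-87029593, plus strand), and Morf4l1-ps1 (chr16:24529832-24529921, plus strand) against exon 8 of Morf4l1 (chr9:90096515-90096604, minus strand).
Gm7049: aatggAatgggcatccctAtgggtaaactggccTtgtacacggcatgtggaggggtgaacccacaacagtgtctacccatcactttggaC
Me1: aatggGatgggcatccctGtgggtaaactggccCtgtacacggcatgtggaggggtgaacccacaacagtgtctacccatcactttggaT
Gm11868: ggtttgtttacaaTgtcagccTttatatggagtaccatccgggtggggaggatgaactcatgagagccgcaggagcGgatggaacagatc
Cyb5r4: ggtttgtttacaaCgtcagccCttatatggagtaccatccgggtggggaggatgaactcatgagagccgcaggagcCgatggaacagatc
Morf4l1-ps1: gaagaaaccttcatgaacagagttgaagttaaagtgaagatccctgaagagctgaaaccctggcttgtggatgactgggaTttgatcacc
Morf4l1: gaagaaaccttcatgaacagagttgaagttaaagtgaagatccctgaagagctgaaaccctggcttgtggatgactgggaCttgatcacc

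In these stretches 4, 3 and 1 of 90 bases differ. Gm7049 aligned with 1710 bases of the 1716-base Me1 coding sequence, with 21 differing bases and 3 gaps, an identity of 98.8%. Gm11868 aligned with 1475 of 1584 coding bases of Cyb5r4, with 23 differing bases and 1 gap (98.4%). Morf4l1-ps1 aligned with all 969 coding bases of Morf4l1, with 2 differing bases (99.8%). Each of these copies is annotated as 1 exon, and Gm11868 covers part of the coding sequence of its parent.

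Cyb5r4's copy Gm11868 (chr4:18844202-18845679, minus strand) had 56, 47, 68 and 65 counts in cKO replicates 1 to 4 and 0, 0, 1 and 0 counts in WT replicates 1 to 4. That is 3.79, 4.69, 4.32 and 4.82 CPM in cKO and at most 0.0497 CPM in any WT library. The ratio over summed counts was 348 with a 95% counting interval of 61.8 to 13785 that covers counting error only (edgeR adjusted p = 3.17e-05). With 10 counts only in the 4 cKO libraries, Gm11868 could pass the filter only through the group where it is high. In cKO libraries 12.9%, 12.5%, 13.6% and 13.7% of the counts of Cyb5r4 and Gm11868 together were assigned to the copy, and in WT libraries 0%, 0%, 0.185% and 0%.

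The Me1 copies Gm7049 (chr13:62813076-62814787, plus strand) and Gm48795 (chr13:62813969-62815523, minus strand) lie on opposite strands and overlap by 819 bases, so they are not separate observations. Gm7049 had 24.2, 10.8, 20.9 and 16.6 CPM in cKO and 0.0933, 0.572, 0.199 and 0 CPM in WT (1018 against 15 counts, edgeR adjusted p = 0.00481), and it too had 10 counts only in the 4 cKO libraries. Its call was lost without WT replicate 3 (log2 fold change 6.50, edgeR adjusted p = 0.0727). Gm48795 had 48.0, 27.3, 44.9 and 33.0 CPM in cKO and 0.466, 0.357, 0.397 and 0.0755 CPM in WT (2132 against 29 counts, log2 fold change 6.73 ± 0.33 SE, edgeR adjusted p = 9.08e-06). Me1 itself stood at 1495, 890, 1416 and 1027 CPM in cKO and 2021, 993, 904 and 701 CPM in WT (log2 fold change 0.06). Copies took 4.10% to 4.60% of the counts of Me1 and its 3 copies in cKO libraries and 0.0108% to 0.0935% in WT libraries.

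Morf4l1-ps1 (chr16:24529394-24530362, plus strand) was assigned 117, 133, 191 and 235 counts in cKO and 0, 32, 7 and 0 counts in WT. It stood at 7.93, 13.3, 12.1 and 17.4 CPM in cKO and 0, 2.29, 0.348 and 0 CPM in WT, without overlap. The ratio over summed counts was 25.5, with a 95% counting interval of 18.5 to 36.2, but the difference did not pass the test over all genes (log2 fold change 4.44 ± 1.16 SE, edgeR unadjusted p = 0.00757, adjusted p = 0.816, DESeq2 0.518, limma-voom 0.433). This pseudogene overlaps Lpp, and it was named after its values were seen. Copies took 5.68%, 10.1%, 8.46% and 12.8% of the counts of Morf4l1 and its 4 copies in cKO and 0.0219%, 1.61%, 0.248% and 0% in WT.

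**Figure D4:**
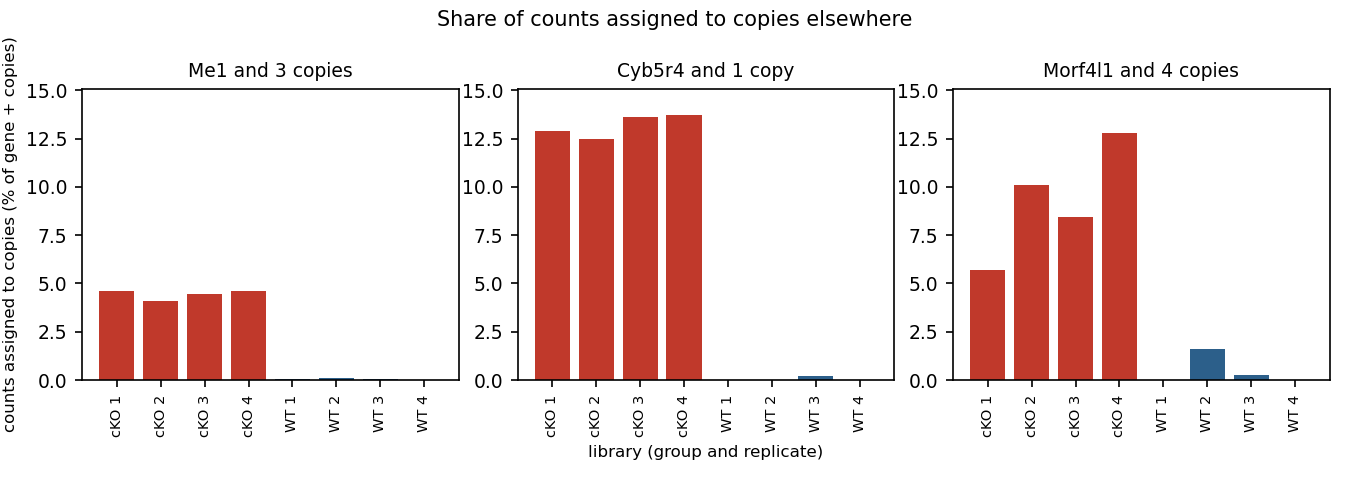
Percent of the summed counts of a gene and its copies that was assigned to the copies, for Me1, Cyb5r4 and Morf4l1 in each library (red cKO, left; blue WT, right). Every cKO bar, from 4.10% to 13.7%, stands above every WT bar, of which the highest is 1.61%.

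In all of these copies WT replicate 4, with the Cre in its genotype entry, stood at or near 0 with the other WT libraries. With it moved to cKO, 0 copies were called in place of 3, the log2 fold changes being 5.89 (Gm7049), 7.28 (Gm11868) and 6.18 (Gm48795), each at an edgeR adjusted p of 0.685. The fifth tested copy, Gm37167, a copy of Gm29562 on chromosome 9, had 0, 0, 3.93 and 0 CPM in cKO and 2.64, 0, 1.74 and 2.79 CPM in WT (edgeR adjusted p = 0.972).

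Summing the counts of the copies with those of their parents changed the log2 fold changes. Cyb5r4 summed with Gm11868 stood at 29.5, 37.4, 31.7 and 35.1 CPM in cKO and 27.4, 27.7, 26.9 and 25.1 CPM in WT. The groups of the sum did not overlap, whereas those of Cyb5r4 alone did (log2 fold change of the sum 0.32 ± 0.11 SE, edgeR unadjusted p = 0.0116, adjusted p = 0.878). Gm11868 holds 236 counts in cKO and 1 in WT, so adding it raised almost only the cKO values. The separation of the sum therefore restates the difference of Gm11868 and is no independent support. Over all genes tested, 3.5% did not overlap. Morf4l1 summed with its copies had 141, 131, 143 and 136 CPM in cKO and 142, 146, 140 and 158 CPM in WT (-0.09 ± 0.10 SE). Me1 with its copies had a log2 fold change of 0.13 ± 0.34 (SE, unadjusted p = 0.717). No sum was called.

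Copies of genes in the flanks gave no such difference that could be tested. Of 20 copies of flanking genes, 12 had some counts and 0 passed the filter.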

How the data were processed

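Polyadenylated RNA of 8 libraries (4 cKO, 4 WT, grouped by title) was analysed from 1 table of estimated counts per gene that the authors deposited. Per the submitters' processing notes, which give no versions, the tools included StringTie, Salmon and edgeR and the build was GRCm38. The sources used here do not give settings, strand or annotation release. Symbols and transcripts came from GENCODE release M21, which matched 54131 of 54385 identifiers (99.53%).

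Counts were rounded, filtered with filterByExpr (14553 genes left), scaled by TMM and tested with the robust quasi-likelihood test of edgeR 4.0.16 in R 4.3.3, with group as the only term and Benjamini-Hochberg adjustment over all genes. DESeq2 1.42.0, limma-voom (limma 3.58.1), size-factor scaling, no filter, each library left out, a replicate block, WT replicate 4 moved to cKO and other member rules were alternatives. The test was checked on simulated counts. Members are genes wholly inside the window. Log2 CPM carries a prior count of 2. Intervals are at 95%, and counting intervals cover counting error only.

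Shared sequence was measured as 31-base sequences of transcripts found in another gene (Python 3.11.15), and copies were aligned locally to coding sequences (Biopython 1.88). Gene and pseudogene copies at or above 50% can share reads, so their values can depend on how estimated counts divide them. No pair of libraries agreed within sampling noise (smallest chi-square per degree of freedom 14.5).

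The members, the 8 gene lists and the tests were chosen with earlier results of these data known. The genes named are Zfp949, Cyb5r4, Adcy3, members called by any tool, at an unadjusted edgeR p under 0.05 or without overlap, the 6 members with the highest mean CPM, those at the edges, called copies, up to 3 genes per flank by unadjusted p, and list members in the block. Other members are given in short so that all are accounted for.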

Additional observations from a re-analysis of the deposited data

Results flagged for a closer look

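Among 68 groups of 4 libraries examined (the members and the tested copies), 8 had 1 library far from the other 3. Chance alone flags about 1 in 20 groups if values are normally distributed. That rate does not hold for groups at or near 0 counts, such as Gm11868 in WT and Gm37167 in cKO. The number of flags therefore cannot be read as an excess. Pgm3 stood at 15 CPM in WT replicate 1, against 1.79 to 3.53 CPM in the other WT libraries. Cep162 stood at 3.81 CPM in cKO replicate 3, against 5.57 to 5.83 CPM in the other cKO libraries. Cep162 also stood at 3.93 CPM in WT replicate 2, against 3.55 to 3.61 CPM in the other WT libraries. Tmed3 stood at 20.6 CPM in cKO replicate 3, against 12.6 to 13.8 CPM in the other cKO libraries. The transcript 4933431K14Rik stood at 1.83 CPM in cKO replicate 1, against 0.889 to 1.04 CPM in the other cKO libraries. Gm11868, the copy of Cyb5r4, stood at 0.0497 CPM in WT replicate 3, which is 1 count, against 0 in the other WT libraries. Morf4l1-ps1, the copy of Morf4l1, stood at 2.29 CPM in WT replicate 2, against 0 to 0.348 CPM in the other WT libraries. Gm37167, the copy of Gm29562, stood at 3.93 CPM in cKO replicate 3, against 0 in the other cKO libraries.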

How the results depend on the processing

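The number of genes called over the whole table was 10, 46 by DESeq2, 93 without a count filter and 1 with WT replicate 4 moved to cKO, and it lay between 8 and 14 with 1 library left out. Block members called numbered 0, but 1 by DESeq2 and 1 without a filter, Zfp949 in both cases (log2 fold change 0.83, adjusted p = 0.0021, and 0.81, adjusted p = 0.0302). With 1 library left out edgeR called 0 members, and Zfp949 ran from 0.76 to 0.91 (edgeR adjusted p 0.183 to 0.739). Members at an unadjusted p under 0.05 numbered 3, 1 with WT replicate 4 moved, and 1 to 6 with 1 library left out. Members without overlap numbered 3, 1 with WT replicate 4 moved, and 3 to 5 with 1 library left out. After the block 2 genes had an unadjusted p under 0.05, 1 by limma-voom and 1 to 2 with 1 library left out. Copies called numbered 3, 0 with WT replicate 4 moved and 2 to 3 with 1 library left out. The median log2 fold change of the members ran from -0.11 to 0.08 with 1 library left out. Signs turned for Dop1a (-0.03 with WT replicate 4 moved, -0.03 to 0.16 with 1 library left out) and Syncrip (-0.04 to 0.11 with 1 library left out). The causes of these shifts were not tested. With the replicate number as a block edgeR called 7 genes and 0 members, and Zfp949 stayed at 0.83 (adjusted p = 0.344), while Gm7049 lost its call (6.51, adjusted p = 0.344). Same-numbered libraries correlated from -0.464 to 0.409 in their deviations, and differently numbered ones from -0.566 to 0.469. These correlations show no pairing by number but cannot exclude one, since other variation between libraries also enters them. Members chosen by transcription start, by unshared sequence or by 10 counts in all 8 libraries gave 0 called and 3 at an unadjusted p under 0.05. Low counts limit members such as Gm28229 and 9430062P05Rik.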
